A study of Bos taurus with 40 samples.

Results

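Gene expression in the skeletal muscle of bulls was compared with that of heifers, using 16 of the 40 RNA samples of the series, 6 from bulls and 10 from heifers. All were purebred Simmental cattle of a herd bred for residual feed intake (RFI), the feed an animal eats beyond or below what is predicted from its size and its growth, and were housed from about 15 months of age on ad libitum concentrate with a restricted amount of grass silage. The muscle was a biopsy of *M. longissimus thoracis et lumborum*, the long muscle of the back. By the methods, the animals most extreme for RFI had been selected within each sex, 5 of high and 5 of low RFI. Most tags differ between the muscle and the liver samples of a sex, which the methods do not explain. After 4 bull files were left out, as set out below, the bulls compared here were 4 of high RFI and 2 of low RFI. The heifers were 5 of each. No agent or genetic alteration was applied to any group. Both sexes had been ranked separately on RFI, and neither the labels nor the methods state whether bulls and heifers were biopsied or sequenced at separate times, so that sex and any such batch cannot be told apart.

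Skeletal muscle is made of long multinucleate fibres, among which lie vessels, nerves, fat and connective tissue, and its contraction is paid for largely by the respiratory chain of the mitochondria. In males of most mammals, testosterone acts through the androgen receptor in muscle to favour protein deposition and larger fibres. Bulls deposit more lean tissue and less fat than heifers. Apart from such hormonal influence, the sexes differ in their chromosomes, with the Y chromosome present in males only and with a few genes on the X chromosome that escape inactivation in females. The files pair no gene symbol with their identifiers, and only the genes that the study named could be called by symbol. Genes of the sex chromosomes and of androgen action could therefore not be recognised, and no sequence is shown for any gene.

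The 6 bulls were chosen by the expression values themselves. Of the 10 files labelled as bull muscle, 4 were left out, those of M12, M6, 2712 and M74, because genes of the liver were abundant in them. Taken as liver profile genes were 33 genes whose mean was over 32-fold higher in bull liver than in heifer muscle, and as muscle profile genes 27 genes that differed as much in the opposite direction. The liver profile genes held between 0.0614% and 0.251% of all reads in the 6 bulls, with a median of 0.0864%, and between 0.0526% and 0.134% in the heifers, with a median of 0.0790%. In the 4 files left out they held 11.2% in M74, 19.2% in M12, 19.5% in 2712 and 22.2% in M6. The bull just inside the limit was thus 2666, at 0.251%, and the file just outside was that of M74, at 11.2%. The muscle profile genes held between 28.2% and 35.0% of the reads in the 6 bulls and between 29.2% and 37.6% in the heifers. They held 15.8% in M74 and under 0.1% in the other 3 files left out. By this measure all 16 samples compared carried a muscle profile. That was largely fixed by the choice of the bull files and by lists defined on these same heifers, so it is no separate support. The defining markers of muscle could not be looked up, as the files give no symbols.

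**Figure D1:**
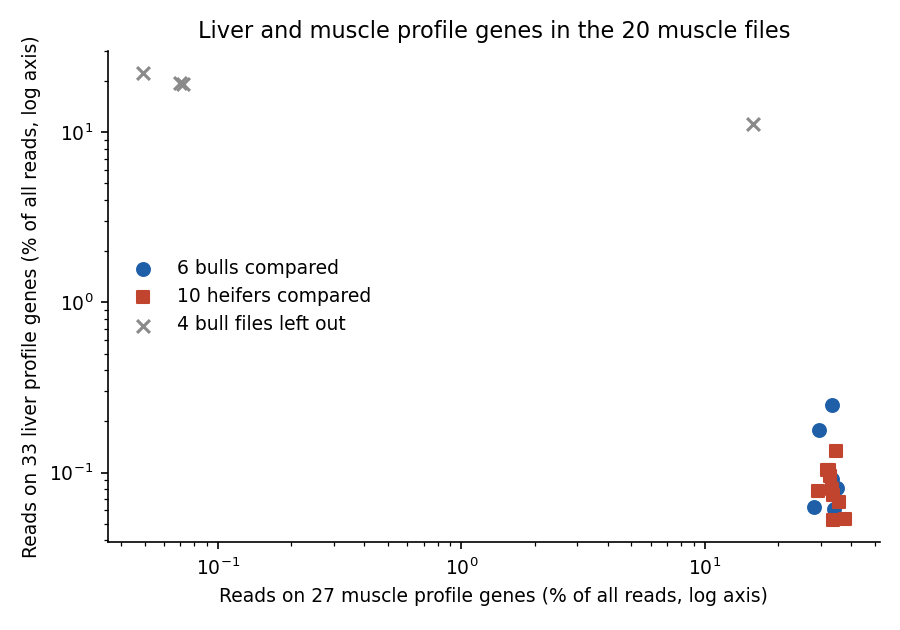
Percent of all reads on the 33 liver profile genes (vertical, log axis) against percent on the 27 muscle profile genes (horizontal, log axis) in each of the 20 muscle files. The 6 bulls and 10 heifers compared lie at the lower right, with at most 0.251% on liver profile genes, and the 4 bull files left out lie at 11.2% or above.

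The values are CPM, which express the reads of each gene relative to the library total so that samples of unlike depth can be set side by side. A further factor per sample, from the bulk of the genes, turned them into scaled CPM. The number of reads could be recovered from the smallest step between values, and was between 14504872 and 27930745 in the bulls and between 10706431 and 30300667 in the heifers. Mean depth did not differ detectably between the sexes (two-sided exact permutation test, p = 0.844, adjusted p = 0.844 over 2 such tests, n = 6 and 10). The bull files listed 6004 genes and the heifer files 5547, of which 5358 were listed in both and were compared. A further 646 genes were listed for bulls only and 189 for heifers only. The listing cannot be read as a division of the genes by sex, since how genes were chosen for it is not given. The 189 genes had means between 7.72 and 51.9 CPM in the 10 heifers. Why the bull files lack them was not tested. A gene largely confined to 1 sex could be missing from those compared. All 10 bull files, the 4 left out included, list the same genes, and 435 of the 646 genes had a mean over 2 times higher in the 4 files left out than in the 6 bulls. Of the 646, 578 were also listed for heifer liver. In the 6 bulls 117 of them had means under 7.37 CPM, the lowest mean listed for heifer muscle.

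Among the heifers the sample of the high RFI animal 2628 stood apart. The median gene differed by 0.83 on the log2 scale between 2628 and the median of the other heifers, while the same distance, taken to the other animals of the same sex, was between 0.14 and 0.46 in the other 15 samples. In the samples compared, heifers varied more among themselves than bulls. The median gene had an SD of 0.43 on the log2 scale over the 10 heifers and of 0.30 over the 6 bulls, and the SD was the larger in heifers for 4241 of the 5358 genes. Without 2628 the median SD of the heifers was 0.34, and the count of genes was not taken without it. Bull files had been left out by their expression while no heifer file was, and the RFI groups were mixed in unlike shares. The spreads can therefore not be read as a trait of sex, and they were not tested. The results below include 2628, and values without it are given where they moved by over 1.5 times.

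Few genes separated bull muscle from heifer muscle. Of 5358 genes, 7 passed an adjusted p under 0.1 (limma on log2(scaled CPM + 1) with RFI group as covariate, Benjamini-Hochberg adjustment), which is 0.131% of those tested. In bulls 1 was higher and 6 were lower. At an adjusted p under 0.05 there were 4, and at an unadjusted p under 0.05 there were 220, of which 127 were higher in bulls. The differences were small for most genes, with a median size of 0.17 on the log2 scale and a median standard error (SE) of 0.21. Only 20 genes differed by more than 1 on the log2 scale, 6 higher and 14 lower in bulls, and 6 of the 7 called genes were among them. The groups did not overlap for 8 genes, or 0.149% of those tested, with all bulls above all heifers for 4 and below for 4. Of these 8 genes, 3 were among the 7 called. When heifer 2628 was left out, 13 genes were called, 5 higher and 8 lower in bulls, and all 7 genes were still among them. With library size alone in place of the scaling, 4 genes were called, 1 higher and 3 lower in bulls, and among the high RFI animals only, 4 bulls and 5 heifers, 0 passed in limma, with 136 at an unadjusted p under 0.05.

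**Figure D2:**
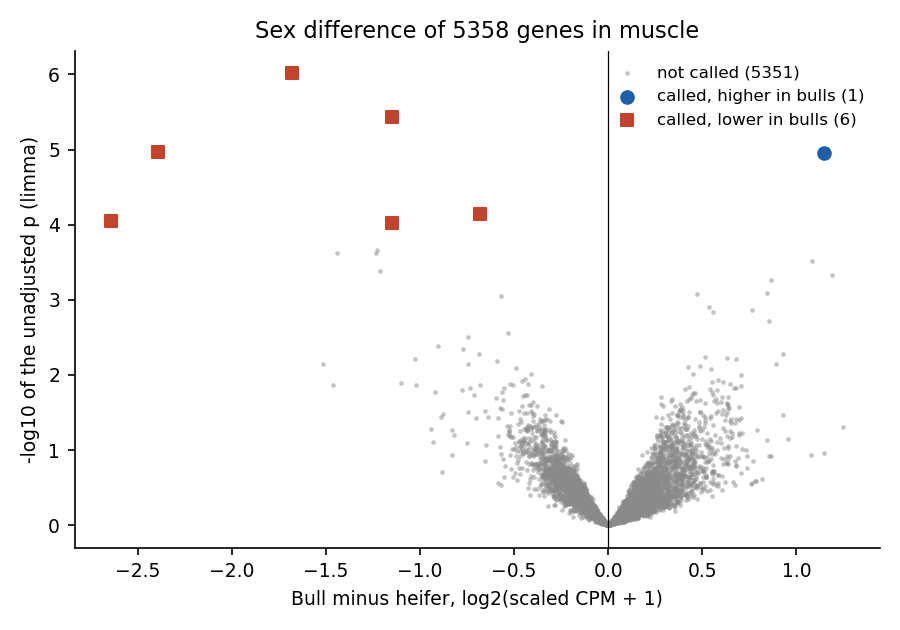
Difference between bull and heifer muscle (horizontal, bull minus heifer on the log2(scaled CPM + 1) scale) against the −log10 of the unadjusted p for each of 5358 genes. Marked are the 7 genes called at an adjusted p under 0.1, of which 1 was higher and 6 were lower in bulls.

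The 1 gene that was higher in bulls was ENSBTAG00000016269. Its level in scaled CPM was between 20.4 and 31.2 in bulls, with a median of 26.9, and between 5.82 and 16.2 in heifers, with a median of 11.8. Every bull lay above every heifer. The mean was 26.5 ± 4.22 scaled CPM in bulls (SD, n = 6) and 12 ± 3.26 in heifers (SD, n = 10), and the difference was 1.14 on the log2 scale with an SE of 0.19 (limma adjusted p = 0.0151). It was alike in both RFI groups, 1.16 between high RFI animals and 1.12 between low RFI animals. The gene was listed in both sets of muscle files, and it was not among the genes listed in all 4 sets of files, so it could not be compared with liver.

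The gene with the smallest p was ENSBTAG00000003889, which was lower in bulls. Its level was between 24.1 and 49.1 scaled CPM in bulls, with a median of 38.4, and between 69.7 and 167 in heifers, with a median of 118. Again the groups did not overlap, and the highest bull lay well under the lowest heifer. Means were 37.0 ± 10.5 scaled CPM in bulls (SD, n = 6) and 119 ± 37.2 in heifers (SD, n = 10), and the difference was −1.68 on the log2 scale with an SE of 0.23 (limma adjusted p = 0.00519). It was −1.61 among high RFI animals and −1.79 among low RFI animals.

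The gene with the next smallest p, ENSBTAG00000007213, was also lower in bulls. It lay between 7.72 and 20.3 scaled CPM in bulls, with a median of 13.2, and between 16.4 and 47.4 in heifers, with a median of 25.7. Of the 6 bulls, 5 lay below all heifers, and 8 of the 10 heifers lay above all bulls. The mean was 13.2 ± 4.59 scaled CPM in bulls (SD, n = 6) and 28.2 ± 9.87 in heifers (SD, n = 10), a difference of −1.15 on the log2 scale with an SE of 0.17 (limma adjusted p = 0.00975). The 2 low RFI bulls were the lowest of the bulls, the 3 lowest heifers were of low RFI too, and without RFI as a covariate its difference was −1.03 with an adjusted p of 0.119. These 3 identifiers were picked after their values had been seen, as the gene that rose and the first 2 of those that fell by p.

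**Figure D3:**
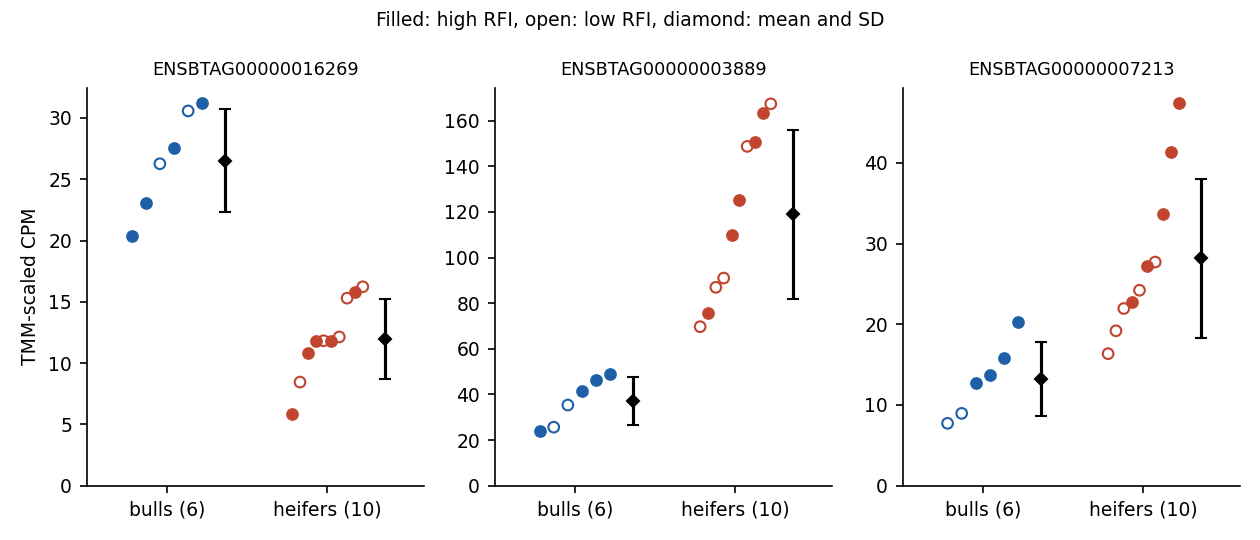
Scaled CPM of the gene that was higher in bulls (left) and of 2 genes that were lower in bulls (middle and right) in each of 6 bulls and 10 heifers, with high RFI animals as filled and low RFI animals as open circles and the mean and SD as diamonds and bars. The groups are apart for the first 2 genes, while the highest bull of the third, at 20.3, lies above the lowest heifer, at 16.4.

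The other 4 called genes were all lower in bulls, with differences of −0.68, −1.15, −2.39 and −2.64 on the log2 scale. Their adjusted p was 0.0151 for the gene at −2.39 and 0.0738 for the other 3. For the gene at −0.68, bulls lay between 49.6 and 63.3 scaled CPM and heifers between 67.6 and 103, without overlap. The gene at −2.39 lay between 33.1 and 107 scaled CPM in bulls and between 106 and 716 in heifers, and 9 heifers were above every bull. The gene at −2.64 was the most variable among bulls, between 6.16 and 112 scaled CPM, with heifers between 48.6 and 371. The gene at −1.15 lay between 24.3 and 50.9 scaled CPM in bulls and between 42.2 and 113 in heifers.

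The tags of the animals came in a 4-digit and a short style (such as 2641 and M57), and each style was present in both sexes, in 3 bulls and 6 heifers and in 3 bulls and 4 heifers. Whether the style marks a batch is not stated. All 7 genes kept their direction within each style. For ENSBTAG00000016269 bulls exceeded heifers by 1.25 (log2) among 4-digit tags and by 0.91 among short tags, and for ENSBTAG00000003889 it was −1.69 and −1.59. ENSBTAG00000007213 differed by −1.22 among 4-digit tags and by −0.74 among short tags. With tag style as a further covariate the same 7 genes were called. Within a style none of the 7 passed in limma: among 4-digit tags 0 genes were called, with 382 at an unadjusted p under 0.05, and among short tags 1 other gene was called, with 531 unadjusted.

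The 4 genes with an adjusted p under 0.05 were called in each of the 16 fits that left out 1 animal, with adjusted p-values up to 0.0992. The other 3 were lost in 10 or 11 of these fits, with adjusted p-values up to 0.295. The number of genes called was 4 without bull M65, bull 2723, heifer 2704 or heifer M62. Bulls 2666 and 2723 had the highest shares of liver profile genes among the 6, at 0.251% and 0.178%. Without both, none of the 5358 genes passed an adjusted p under 0.1 in limma, and 102 had an unadjusted p under 0.05, while the differences were 1.18 for ENSBTAG00000016269, −1.58 for ENSBTAG00000003889 and −1.06 for ENSBTAG00000007213, with adjusted p-values of 0.174, 0.108 and 0.174. Of the liver profile genes themselves, 26 of 33 had a higher value in bulls, with a median difference of 0.27 on the log2 scale against 0.03 over all genes tested, and none was called. The muscle profile genes had a median difference of −0.03, and none of the 27 was called. Both lists had been picked by the means of these same heifers, low for liver profile genes and high for muscle profile genes. Neither list is therefore an independent measure of the sex difference.

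Among the genes that the study named, 16 in all, 9 were listed in both sets of muscle files, and none of the 9 differed between the sexes at an adjusted p under 0.1. The study had chosen them on samples of this series, 5 in heifer muscle and the others in bull liver, for their relation to RFI and not to sex. The 5 genes of heifer muscle are encoded in the mitochondrial genome. *COX1* and *COX3* are subunits of cytochrome c oxidase, the enzyme that passes electrons to oxygen, *cytb* is a subunit of the complex before it, and *ND5* and *ND6* belong to the NADH dehydrogenase at the entry of the chain.

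All 5 mitochondrial genes had a higher value in bulls in the fit over both RFI groups, without passing the test. Among high RFI animals the bull minus heifer values were between 0.92 and 1.03 on the log2 scale, while among low RFI animals 4 of the 5 were below 0 (*COX1* at −0.024, *ND6* at −0.064, *cytb* at −0.19 and *COX3* at −0.24) and *ND5* was at 0.13. *COX1*, the most abundant, lay between 17320 and 142401 scaled CPM in bulls, with a median of 37636, and between 15036 and 125547 in heifers, with a median of 25394. In each sex 1 animal stood far above the rest, bull 2641 (high RFI) at 142401 and heifer M70 (low RFI) at 125547. The other high RFI bulls lay between 17320 and 30649 and the high RFI heifers between 15036 and 26757. Both low RFI bulls, at 44623 and 47912, lay above the other low RFI heifers, at between 24031 and 43884. The values by RFI group thus rest in part on bull 2641 and heifer M70, and were not computed without them. Over both RFI groups the difference of *COX1* was 0.56 on the log2 scale with a 95% confidence interval from −0.30 to 1.43 (limma adjusted p = 0.890). It was largest for *ND5*, at 0.68 with an interval from −0.29 to 1.65, and 0.56 for *ND6*, 0.49 for *cytb* and 0.47 for *COX3*. Without bull 2641 the differences of the 5 genes were between 0.01 and 0.27. Without both bull 2641 and heifer M70 they were between 0.15 and 0.51, with the lowest adjusted p at 0.696. Within tag styles the sign was not shared. Bull 2641 had a 4-digit tag and heifer M70 a short one, and the split by style was not computed without them. Among 4-digit tags the 5 means were higher in bulls by 0.71 to 1.17 (log2), and among short tags the bull minus heifer means were between −0.34 and −0.020. With RFI group as covariate among short tags, the values were 0.071 for *COX1* and 0.16 for *COX3* and between −0.070 and −0.023 for the other 3.

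Together the 5 genes took between 3.41% and 20.3% of all reads in bulls, with a median of 6.89%, and between 2.72% and 18.2% in heifers, with a median of 4.84%. The groups overlapped over nearly their whole range (two-sided exact permutation test, p = 0.348, adjusted p = 0.696 over 2 such tests, n = 6 and 10). Bull 2641 stood at 20.3% and heifer M70 at 18.2%, while the next highest were bull M67 at 8.20% and heifer 2724 at 7.58%. The genes other than these share the remaining reads. The scale factors of 2641 and M70 were the lowest of the 16, at 0.774 and 0.781. Heifer 2632 was next at 0.799, with 6.11% of its reads on the 5 genes. What sets these factors was not tested. Leaving the mitochondrial genes out of the scaling left the same 7 genes called. This took only 5 genes from a trimmed mean and kept CPM on totals that include their reads. It therefore does not test whether the calls depend on the mitochondrial share.

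**Figure D4:**
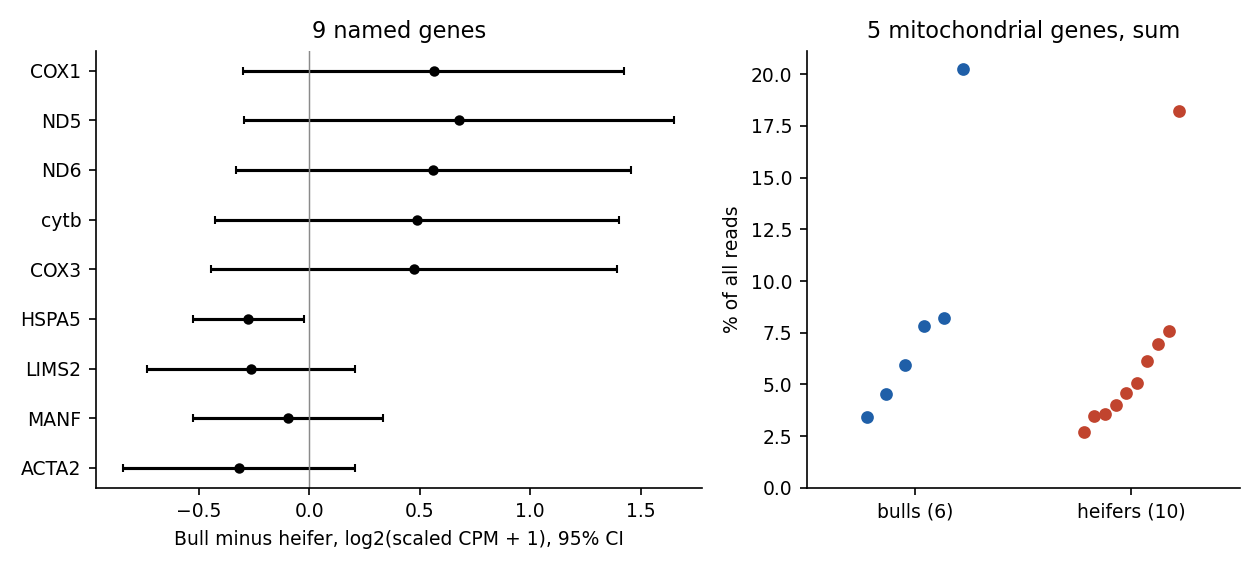
Left, difference between bull and heifer muscle on the log2(scaled CPM + 1) scale with its 95% confidence interval for the 9 named genes listed in both sexes. Right, percent of all reads on the 5 mitochondrial genes in each of 6 bulls and 10 heifers, where bull 2641 stands at 20.3% and heifer M70 at 18.2%.

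Of the genes of the endoplasmic reticulum, the compartment in which secreted proteins are folded, *HSPA5* and *MANF* could be compared. *HSPA5*, the main chaperone there, lay between 39.8 and 53.5 scaled CPM in bulls, with a median of 46.2, and between 44.2 and 75.7 in heifers, with a median of 53.3. Of the 6 bulls 2 lay under all heifers and 5 heifers lay above all bulls. Its difference was −0.28 on the log2 scale with an interval from −0.53 to −0.02, and it did not pass the adjustment over all genes (limma adjusted p = 0.890). *MANF*, a protein released under stress of this compartment, lay between 6.62 and 10.7 scaled CPM in bulls and between 4.82 and 15.3 in heifers, a difference of −0.10 with an interval from −0.52 to 0.33. It was −0.014 without bull 2641, −0.034 without heifer 2632, −0.051 without heifer 2628, −0.16 without bull M67 and −0.17 without heifer M70. *HYOU1*, a related chaperone, was listed for bull muscle only, at between 4.83 and 11.7 CPM in the 6 bulls. *DBP*, a transcription factor of the circadian clock, was likewise listed for bull muscle only, at between 5.50 and 11.5 CPM. Neither can be compared between the sexes. The other 5 named genes, *CRELD2*, *GSTT1*, *DNAJB11*, *GMPPB* and *GNPNAT1*, were listed for neither set of muscle files.

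*ACTA2*, the actin of smooth muscle and hence of vessel walls, lay between 46.2 and 152 scaled CPM in bulls, with a median of 65.3, and between 37.3 and 169 in heifers, with a median of 81.6. The highest values were those of bull 2641 and heifer 2628. The difference was −0.32 on the log2 scale with an interval from −0.84 to 0.21 (limma adjusted p = 0.890), and it was −0.21 without heifer 2628 and −0.49 without bull 2641. *LIMS2*, an adaptor of cell adhesions to the matrix, lay between 20.4 and 38.7 scaled CPM in bulls and between 23.1 and 86.2 in heifers. The value of 86.2 was that of heifer 2628, and the next highest heifer was at 34.3. The difference of *LIMS2* was −0.26 with an interval from −0.74 to 0.21, and −0.08 without 2628.

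The sex difference in muscle was then set against that in liver, to see which differences were found in 1 tissue and not equally in the other. Besides the 16 muscle samples, the fit took 10 bull liver samples and 7 heifer liver samples, leaving out 3 heifer liver files that held a muscle profile (2728, L58 and L16), and 4416 genes listed in all 4 sets of files. By their tags, 4 of the animals gave both tissues. Short tags begin with M in muscle and are written with L or as a bare number in liver. Animals with short tags could thus not be matched, and more of the animals may have given both tissues. The difference between the tissues passed an adjusted p under 0.1 (limma interaction of sex and tissue) for 14 genes, or 0.317% of those tested, and for 252 genes at an unadjusted p under 0.05. For 8 of the 14 the muscle difference lay further towards heifers than the liver difference, and for 6 further towards bulls. In this fit, which shares 1 estimate of the spread over both tissues, 15 genes differed between the sexes in muscle and 21 in liver. None of the 4416 genes passed in both. Lists this short would rarely share a gene by chance, so the lack of a shared gene does not set the tissues apart. The number of genes whose difference between the tissues was called was 5 when all 10 heifer liver samples entered, and 6 without the muscle samples of the 4 animals that gave both tissues.

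Of the 7 genes called in muscle, 5 were listed in all 4 sets of files, and for 4 of these the tissues differed. Over all 4416 genes the share was 0.317%. The 5 genes had been picked for their sex difference in these same muscle samples, which by itself favours such a call. The clearest of the 4 was ENSBTAG00000007213. In liver its level was between 103 and 160 CPM as deposited in bulls, with a median of 131, and between 85.3 and 112 in heifers, with a median of 97.7. Liver levels were thus higher than any in muscle, and bulls, the lower sex in muscle, had the higher median in liver. The sex difference was 0.33 on the log2 scale in liver with an SE of 0.12, which did not pass by itself (limma adjusted p = 0.47), and the muscle difference minus the liver difference was −1.48 with an SE of 0.18 (limma adjusted p = 6.49e-06). With all 10 heifer liver samples, those with a muscle profile included, the limma adjusted p of this gene was 0.000536.

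The gene with a muscle difference of −2.39 had a liver difference of 0.08 (adjusted p = 0.00164 for the difference between tissues, limma), and those at −2.64 and −1.15 had liver differences of −0.12 and 0.01 (both adjusted p = 0.0615). With all 10 heifer liver samples none of these 3 calls held (limma adjusted p = 0.63, 0.169 and 0.545). That set includes the files with a muscle profile, so it is not a test on liver alone. The calls for the genes at −2.64 and −1.15 were also lost without the muscle samples of the animals that gave both tissues (both limma adjusted p = 0.201). ENSBTAG00000003889 differed in the same direction in both tissues. It lay between 55.5 and 141 CPM in bull liver, with a median of 76.7, and between 57.7 and 217 in heifer liver, with a median of 127. Its liver difference was −0.66 with an SE of 0.23 and did not pass (limma adjusted p = 0.377), and the muscle difference was not shown to differ from it (−1.02 with an SE of 0.33, limma adjusted p = 0.413).

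**Figure D5:**
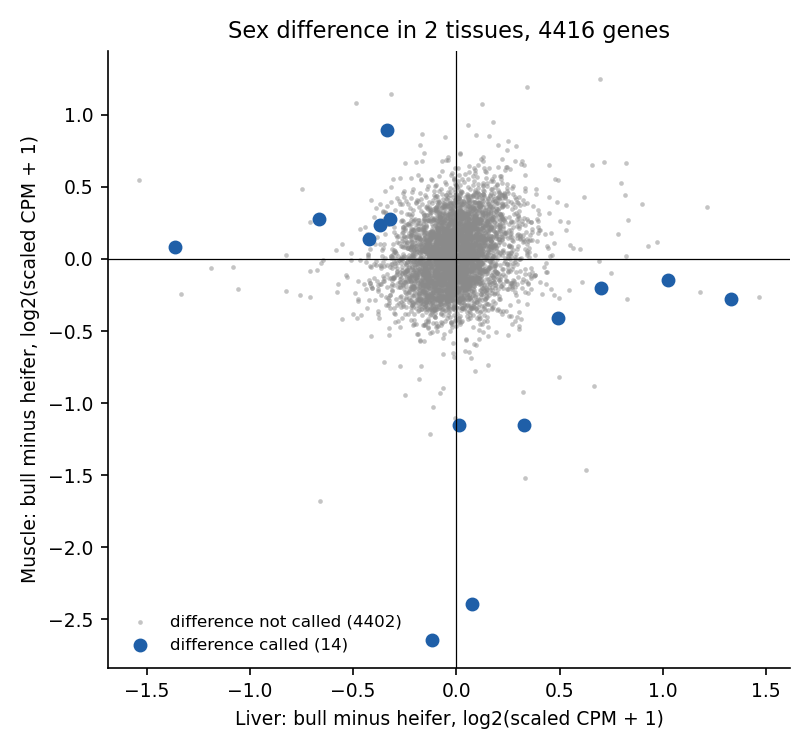
Sex difference in muscle (vertical) against that in liver (horizontal), both bull minus heifer on the log2(scaled CPM + 1) scale, for 4416 genes. The 14 genes whose difference between tissues was called at an adjusted p under 0.1 are marked, 8 with a muscle difference further towards heifers and 6 with one further towards bulls.

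No named gene had a sex difference that was called as differing between the tissues. *HSPA5* had a liver difference of 0.83 on the log2 scale with an SE of 0.24 against −0.28 in muscle, and *MANF* one of 0.75 with an SE of 0.24 against −0.10, and the difference between the tissues had adjusted p-values of 0.372 and 0.678 (limma). *HSPA5* was also far less abundant in muscle, since in bull liver it lay between 192 and 1031 CPM as deposited. *LIMS2* had a lower value in bulls in both tissues, with differences of −0.71 in liver and −0.26 in muscle, and neither passed. The 5 mitochondrial genes had liver differences between −0.27 and −0.07, opposite in sign to those in muscle, and the difference between the tissues was not called for any of them (limma adjusted p = 0.941).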

How the data were processed

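RNA was sequenced from muscle biopsies of bulls and heifers and from liver, and 16 muscle and 17 liver samples were used. The authors used STAR 2.5.1 for alignment to UMD3.1 and HTSeq 0.6.1p2 to count reads of protein-coding genes. The deposited values are CPM of part of the genes, and how these were chosen is not given in the sources used here. In bull muscle, the last 1359 rows of all 10 files equal the liver values of bull 2723, so that these columns as deposited are other than plain CPM, and the rows were dropped. Depth was recovered from the step between values, to within 0.000275 of a read, and sets the precision of low genes. Counts were not tested.

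CPM were divided by factors from a trimmed mean of M values (30% and 5% trimmed, weighted by recovered depth), which gives scaled CPM. A filter of over 1 CPM in 5 or more samples removed no gene. Values of log2(CPM + 1), on which folds of low genes are understated, entered limma 3.58.1 (R 4.3.3), its variance prior following the mean, with RFI group as covariate (within tissue for the comparison with liver), at a Benjamini-Hochberg adjusted p < 0.1. Single values were compared by exact permutation with scipy 1.17.1 (Python 3.11.15, numpy 2.4.6, pandas 2.3.3, matplotlib 3.10.9). The scripts were tested on simulated data. Statements on depth cover counting error only.

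Samples were grouped by the labels. The samples, rules and gene lists were chosen with earlier results of these data known. Genes were to be named where called, apart between the sexes and known by symbol, and from lists of pathways and cell markers. None of the identifiers matched a symbol in the reference table, so that these lists were not used here, and names are those of the 16 genes the study names. No 2 of the 16 muscle samples were duplicates (120 pairs). Each muscle sample compared carried its own tag and was taken as an animal. Alternatives were other scalings, pseudocounts, filters, covariates and subsets of the animals.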

Additional observations from a re-analysis of the deposited data

Results flagged for a closer look

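In 40 sets of values (the 16 called or named genes and 4 measures of each sample, in bulls and in heifers), 6 held an animal far from the others of its sex by Dixon's criterion, which chance meets in about 1 in 20 sets. The sets are not independent, so that 6 cannot be set against that rate. The mitochondrial genes and their summed share describe the same reads in the same animals. The 4 measures also include the shares of liver and muscle profile genes, which were tied to the choice of files. Heifer M70 stood above the other heifers in *COX1*, *ND5* and *ND6*, with a gap to the next heifer of 0.495, 0.547 and 0.489 of the whole range on the log2 scale, and in the share of reads on the 5 mitochondrial genes (18.2%, a gap of 0.686 of the range). Bull 2641 stood above the other bulls in that share (20.3%, a gap of 0.716 of the range). Heifer 2628 stood above the others in *LIMS2*, with a gap of 0.704 of the range.

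The sex difference differed between muscle and liver, by the interaction of sex and tissue in limma, for 4 of the 5 called genes that could be compared. Over all 4416 genes the share was 0.317%, and the 5 had been picked for their sex difference in the same muscle samples. The muscle difference lay below the liver difference by −1.48 on the log2 scale for ENSBTAG00000007213 (adjusted p = 6.49e-06), by −2.47 for the gene at −2.39 in muscle (adjusted p = 0.00164), by −2.53 for the gene at −2.64 (adjusted p = 0.0615) and by −1.16 for the gene at −1.15 (adjusted p = 0.0615). With all 10 heifer liver samples, those with a muscle profile included, 1 of the 4, ENSBTAG00000007213, was still called. Without the muscle of the animals that gave both tissues 2 were, that gene and the gene at −2.39.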

How the results depend on the processing

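The count of 7 genes was 6 to 8 with median-of-ratios scaling, pseudocounts of 0.1 or 5 CPM, all genes unfiltered, a minimum of 10 reads per sample, no covariate, tag style or depth as covariate, and scaling without the mitochondrial genes. It was 4 with library size only and 4 at an adjusted p under 0.05. Leaving out 1 animal at a time gave 4 to 13 genes: 4 without bull M65, bull 2723, heifer 2704 or heifer M62, and 13 without heifer 2628. No gene passed in 3 subsets: high RFI animals only (0 called by limma, 136 at an unadjusted p under 0.05), 4-digit tags only (0 called, 382 unadjusted), and all but bulls 2666 and 2723 (0 called, 102 unadjusted). Among short tags only, 1 gene was called, which was not among the 7. These subsets hold fewer animals. Without bull 2641 and heifer M70, chosen like the previous pair after the data were seen, 5 were called. With all 10 bulls 6 were called, of which 2 were among the 7. ENSBTAG00000007213 then had a difference of 0.14, *HSPA5* of 0.98, *LIMS2* of 0.15 and *MANF* of 0.78, each with the opposite sign, with 4 files in which liver profile genes were abundant. Among short tags only, *ND5* (−0.023), *ND6* (−0.069), *cytb* (−0.070), *LIMS2* (0.072) and *MANF* (0.28) changed sign in the fit with RFI group as covariate, and the cause was not tested. The other values of single genes kept their sign. For the comparison with liver, 14 genes became 18 with the animal as a block (consensus correlation 0.262), 11 with library size only, 15 with a pseudocount of 5 CPM, 6 at an adjusted p under 0.05, 5 with all 10 heifer liver samples, and 6 without the muscle of the 4 animals that gave both tissues, an alternative added after the data were seen. The animal block and the alternative without these 4 animals cover only animals matched by tag, which short tags do not allow. Bulls and heifers are different animals, so the sexes could not be paired. Tests with edgeR and DESeq2 were planned for whole reads and were not run, as the deposited values were treated as CPM. With 2 low RFI bulls, sex differences within low RFI rest on few animals.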
